A study of Homo sapiens with 9 samples.

Results

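The genes described here are 49 genes of the interferon response, chosen by symbol: the receptors, their kinases, the transcription factors they act through and a set of well-known interferon-stimulated genes. They were chosen with earlier results of these data known. All 49 were found among the 35762 gene symbols of a table of estimated RNA-seq counts. The cells were TYUC-1, a human cancer line labelled as neuroendocrine esophageal carcinoma and grown in suspension in medium with serum. The 3 groups, each of 3 biological replicates, were day 0, day 3 and day 6 of EPZ-6438, a small-molecule inhibitor of EZH2, the methyltransferase of Polycomb repressive complex 2 that places the repressive mark H3K27me3. The labels list EPZ-6438 for every library, the treatment protocol gives 2 uM of it or the solvent DMSO, and nothing says which of these, if any, the day 0 cells were given. Solvent-only cells of the later days were not analysed here, so the inhibitor and the time in culture cannot be told apart, and the line is a single model. The question the design poses is which RNA levels differ between day 0 and days 3 and 6.

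Interferons are secreted proteins, and those of type I are made by cells on sensing viral nucleic acid. Type I interferons bind IFNAR1 and IFNAR2, and interferon gamma binds IFNGR1 and IFNGR2. At the type I receptor, the kinases JAK1 and TYK2 then phosphorylate STAT proteins. STAT2, IRF9 and a partner STAT form a complex that binds the interferon-stimulated response element (ISRE) in promoters, while STAT dimers bind the gamma-activated site (GAS). The target genes encode proteins that block virus entry, sense or degrade viral RNA, attach the ubiquitin-like protein ISG15 to other proteins, or prepare peptides for antigen presentation.

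The 250 bases before and 50 bases after the annotated start, from RefSeq on GRCh38.p14, were at hand for 37 of the 49 genes. The ISRE was searched on both strands as GAAA, any 2 bases and GAAA again, which on the opposite strand reads TTTC, any 2 bases and TTTC, and the GAS as TTCNNNGAA, which reads the same on both strands. The ISRE letters stood in 18 of the 37 windows (48.6%), against 3.65% of all 27305 windows in the table and 2.76% of the 11321 windows of genes tested here. The GAS letters stood in 8 of the 37 (21.6%), against 7.88% of all windows. The stretches below hold a match that lies upstream of the start and outside annotated exons, from genes that were higher on day 6, that did not pass the test, and that had too few counts to test. Each runs 5′ to 3′ on the gene's strand, the match is in capitals, and 20 bases flank it on each side, or as many as remain before the start.
HERC5: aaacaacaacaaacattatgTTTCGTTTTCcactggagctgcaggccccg
IFI6: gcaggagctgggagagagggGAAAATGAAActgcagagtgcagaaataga
IRF1: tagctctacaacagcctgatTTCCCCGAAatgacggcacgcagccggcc
IFIT1: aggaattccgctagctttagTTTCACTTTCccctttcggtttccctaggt
ISG15: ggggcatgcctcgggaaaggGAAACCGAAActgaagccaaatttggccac
IFI27: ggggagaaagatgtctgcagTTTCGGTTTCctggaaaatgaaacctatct
IFI44: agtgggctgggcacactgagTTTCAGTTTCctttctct
HERC5 (chr4:88457025-88457074, plus strand) and IFI6 (chr1:27672278-27672327, minus strand) carry ISRE letters and were higher on day 6. IRF1 (chr5:132490869-132490917, minus strand) carries GAS letters and was also higher on day 6. IFIT1 (chr10:89392487-89392536), ISG15 (chr1:1013370-1013419) and IFI27 (chr14:94110608-94110657), all on the plus strand, carry ISRE letters and did not pass the test on day 6. IFI44 (chr1:78649751-78649788, plus strand) was not tested. By call on day 6 against day 0, the ISRE letters stood in 7 of 16 windows of genes that were higher, 1 of 4 of genes that were lower, 7 of 13 of genes not past the test and 3 of 4 of genes not tested. These matches are letters in a window and no measure of binding.

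Levels are given as CPM, counts relative to library sizes that were scaled by the trimmed mean of M-values (TMM). Changes are log2 fold changes with their standard error (SE) from a quasi-likelihood fit over all 9 libraries in edgeR, and adjusted p is its p-value after Benjamini-Hochberg adjustment over all 15345 genes tested. A gene is called higher or lower at an adjusted p under 0.05. Libraries held 21638874 to 31235055 estimated counts, so 3 counts, the upper limit a count of 0 allows, came to 0.098 to 0.141 CPM per library. That limit and the count intervals below cover counting error only. The labels call the replicates biological and give no batch, extraction or sequencing date. The day 0 replicate 2 library stood apart: its mean correlation with the other day 0 libraries across genes was 0.976, against 0.986 to 0.997 for each other library within its day. EZH2 itself stood at 193 ± 3.95 CPM (SD, n = 3) on day 0, 167 ± 2.34 on day 3 and 150.3 ± 8.46 on day 6. Among defining markers of the labelled cell type, SYP stood at 4.93 to 6.83 CPM on day 0 and INSM1 at 4.23 to 4.59, and CHGA was at 0 in all 9 libraries. Of 12 leukocyte markers, CD3D, MS4A1 and NKG7 were at 0 in every library, and the summed level, nearly all of it LYZ, ran from 489 to 644 CPM on day 0, 347 to 363 on day 3 and 328 to 331 on day 6. The summed level of 6 markers of plasmacytoid dendritic cells, a strong source of interferon, was 147 to 164, 133 to 137 and 97.2 to 113 CPM on the 3 days, nearly all of it TCF4 and IRF8, which other cells also express. Of the others, LILRA4, IL3RA and GZMB were at 0 in every library of days 0 and 3, and CLEC4C did not exceed 0.235 CPM in any library. Summed fibroblast markers were 55.4 to 60.1, 78.0 to 83.8 and 73.7 to 80.8 CPM, most of it PDGFRA, with THY1 at 0 throughout. Of those tested, COL1A1 (0.392 to 0.658 CPM on day 0 and 8.34 to 10.4 on day 6), PDGFRA and PDGFRB were higher on day 6. COL1A2 did not pass the test. Summed endothelial markers were 2.49 to 3.4, 5.13 to 5.85 and 9.28 to 12.6 CPM, most of it TEK, with CLDN5 at 0 throughout. Of those tested, TEK (1.76 to 2.59 CPM on day 0 and 7.57 to 10.3 on day 6) and VWF were higher on day 6, and PECAM1 did not pass. The summed level of 7 squamous markers was 11.2 to 12.2, 18.8 to 21.5 and 26.2 to 29.9 CPM. All 4 of them that could be tested were higher on day 6, among them KRT13 (9.87 to 11 CPM on day 0 and 16.6 to 19.7 on day 6) and KRT5 (0.936 to 1.13 and 5.25 to 6.93 CPM). On day 3 KRT5 was lower than on day 0 (0.268 to 0.609 CPM, log2 -1.36, SE 0.29, adjusted p 0.00362), while TP63, KRT13 and SOX2 were higher. The summed level of 5 epithelial markers was 1657 to 1893, 1521 to 1613 and 1701 to 1857 CPM, within which EPCAM was lower on days 3 and 6 (413 to 568, 302 to 323 and 287 to 318 CPM) and CDH1 higher (209 to 255, 261 to 281 and 297 to 311 CPM). The part of other cell types or of a change in cell state in the results was not tested, and in bulk RNA more cells with a transcript and more transcript per cell cannot be told apart.

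Of the 49 genes, 42 passed the filter on low counts. On day 3, 12 were higher and 4 lower than on day 0, 38.1% of those tested, where 40.6% of all genes tested were called, 22.5% higher and 18.1% lower. On day 6, 19 were higher and 4 lower than on day 0, 54.8% of those tested, where 54.6% of all genes were called, 28.9% higher and 25.7% lower. The share called in either direction was thus close to that of all genes on both days. The share called higher was 28.6% on day 3 and 45.2% on day 6. The median log2 fold change of the tested members was 0.18 on day 3 and 0.30 on day 6, beside 0.01 over all genes on both days. Between day 3 and day 6, 5 members were higher and 1 lower (14.3%, against 16.3% of all genes, 11.5% higher and 4.76% lower), with a median of 0.16 beside -0.00. The members and the lists below were chosen with earlier results of these data known. Their shares and medians beside those of all genes are therefore descriptions and no test. Both comparisons with day 0 use the same day 0 libraries. Without day 0 replicate 2 the counts were 14 higher and 5 lower on day 3, 20 and 6 on day 6, and 11 and 1 from day 3 to day 6.

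The changes were mostly small. Among the called members, 4 were at least 2-fold higher on day 3 and 8 on day 6, and none was lower by 2-fold or more on day 6. The summed level of all 49 members was 1248 to 1269 CPM on day 0, 1286 to 1324 on day 3 and 1259 to 1285 on day 6. The largest part of it was JAK1, at 443 to 469 CPM on day 0 and 341 to 363 on day 6. Rises of genes at low levels add little to this sum, so it does not show how single members changed. The genes that rose most were low on day 0. Of 15 members under 1 CPM on day 0, 8 were tested and 3 were higher on day 6. Of 18 members from 1 to 10 CPM, all were tested and 10 were higher on day 6. Of 16 members at 10 CPM or more, 6 were higher and 4 lower on day 6. Over all genes tested, at any level, 28.9% were higher and 25.7% lower on day 6. Shares of all genes within these bands were not computed, so the counts cannot be read as particular to the members. The filter can admit a gene low on day 0 through its later counts, as with HERC5 (pooled counts of 25, 52 and 96) and IFI6 (20, 52 and 58). The day 0 level is also the base of each fold, so the bands are not independent of the change. Per kb of the longest coding transcript, the highest day 0 levels were those of BST2 (157 CPM per kb), JAK1 (90.7), IRF3 (51.2), USP18 (18.7) and TYK2 (16.4).

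**Figure D1:**
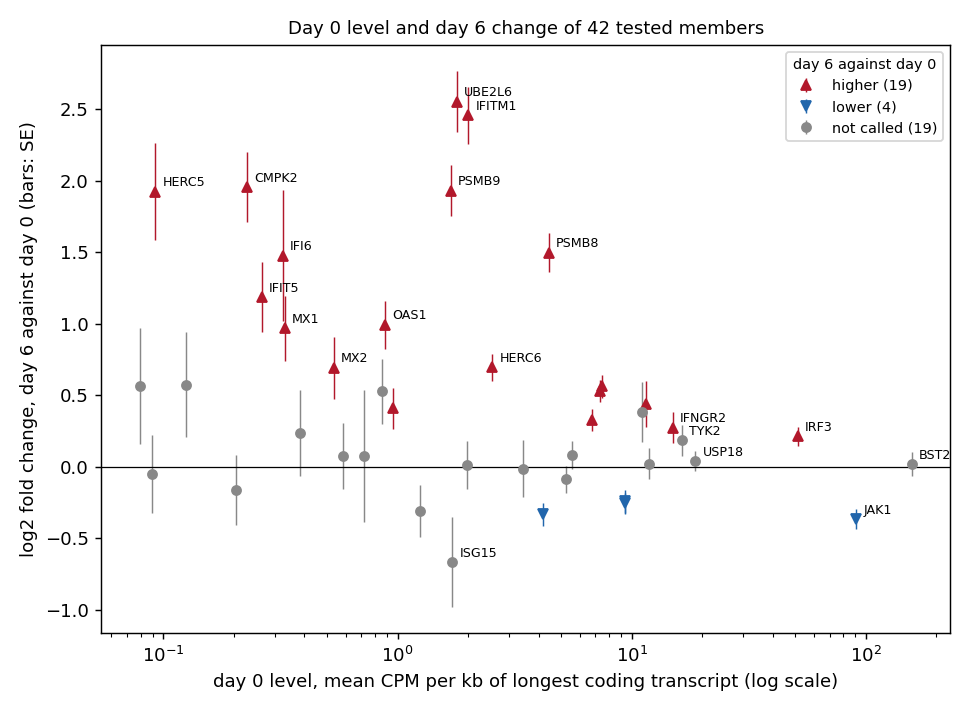
Day 0 level (mean CPM per kb of transcript, log axis) against the log2 fold change from day 0 to day 6 (bars are SE) for the 42 tested members; triangles point up for the 19 called higher and down for the 4 called lower, and circles are the 19 not past the threshold. The changes above 1.4 on the log2 scale lie below 5 CPM per kb, and JAK1 at 90.7 CPM per kb is among the 4 that were lower.

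The ligands had almost no counts. Of 21 interferon genes of types I, II and III, 19 had no count in any of the 9 libraries and none was tested. IFNW1 had 0 counts on day 0, 1 on day 3 and 2 on day 6 over the 3 libraries of each day, and IFNL3 had 2 counts on day 6 and none before. These are at or under the limit of 3 counts, so no level can be given.

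The receptor subunits were expressed on every day. IFNAR1, the type I subunit that pairs with TYK2, stood at 56.3, 57.3 and 58.0 CPM on day 0, 47.1, 47.3 and 46.5 on day 3 and 45.6, 52.3 and 45.9 on day 6. All later libraries were below all day 0 libraries, and the log2 fold change was -0.28 (SE 0.07, adjusted p 0.0089) on day 3 and -0.26 (SE 0.07, adjusted p 0.0104) on day 6. With scaling by library size only, IFNAR1 missed the threshold on both days, with adjusted p of 0.0682 and 0.176. IFNGR2, a subunit of the receptor for interferon gamma, stood at 30.8, 39.9 and 29.3 CPM on day 0, 34.2, 31.2 and 34.1 on day 3 and 41.1, 38.9 and 40.9 on day 6. Its day 0 and day 6 libraries overlapped through day 0 replicate 2, and it was higher on day 6 at an adjusted p of 0.0475 (log2 0.27, SE 0.11), a call lost in 14 of 18 alternative analyses. IFNAR2 stood at 20.7 to 25.4 CPM on day 0, 21.1 to 22 on day 3 and 19.9 to 21.6 on day 6, and IFNGR1 at 13.1 to 15.0, 12.4 to 12.9 and 13.4 to 16.6. Neither passed the test on either day. IFNLR1, the receptor subunit specific to type III interferons and one of the further pathway genes listed, stood at 1.01, 0.893 and 1.18 CPM on day 0, 2.09, 1.81 and 2.17 on day 3 and 1.92, 2.24 and 2.63 on day 6. It was higher on both days, with log2 fold changes of 0.98 (SE 0.22, adjusted p 0.00412) and 1.13 (SE 0.22, adjusted p 0.000851).

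Of the receptor kinases, JAK1 fell and TYK2 did not pass the test. JAK1, which serves both receptor types, stood at 462, 443 and 469 CPM on day 0, 422, 448 and 429.9 on day 3 and 362, 363 and 341 on day 6. The day 6 libraries lay below all others, at 0.776 of the day 0 level (log2 -0.37, SE 0.07, adjusted p 0.000793). JAK1 was also the 1 member lower on day 6 than on day 3 (log2 -0.29, SE 0.07, adjusted p 0.0132), and that call was lost without day 3 replicate 2 or replicate 3, with adjusted p up to 0.0832. TYK2 stood at 78.9, 57.8 and 77.1 CPM on day 0, with replicate 2 the low value, 83.7, 81.2 and 76.8 on day 3 and 81.6, 76.8 and 84.5 on day 6.

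Among the transcription factors STAT2, IRF3 and IRF1 rose, by less than 1.5-fold each. STAT2, the subunit of the ISRE-binding complex with the activating domain, stood at 24.1, 22.5 and 26.6 CPM on day 0, 30.7, 30.7 and 31.5 on day 3 and 34.2, 35.6 and 38.2 on day 6. The days did not overlap, and the log2 fold change was 0.34 (SE 0.08, adjusted p 0.00619) on day 3 and 0.56 (SE 0.08, adjusted p 0.000127) on day 6. IRF3, which switches on interferon genes after nucleic acid sensing, stood at 90.5, 88.2 and 88.9 CPM, then 105, 113 and 114, then 105, 99.1 and 106. It was higher on day 3 (log2 0.32, SE 0.07, adjusted p 0.00332) and on day 6 (log2 0.21, SE 0.07, adjusted p 0.0181), the latter lost in 6 of 18 alternatives. IRF1, whose GAS letters are printed above, stood at 3.36, 3.57 and 3.34 CPM on day 0, 4.18, 3.68 and 4.22 on day 3 and 4.07, 5.13 and 4.48 on day 6. Its rise passed on day 6 (log2 0.41, SE 0.14, adjusted p 0.028) and was lost in 9 of 17 alternatives. IRF9, the DNA-binding partner of STAT2, passed no test: it stood at 5.49, 7.95 and 5.5 CPM on day 0, 5.96, 4.85 and 3.91 on day 3 and 5.55, 5.56 and 7.67 on day 6. IRF2 stood at 23.6, 32.6 and 25.8 CPM, then 27.1, 26.8 and 26.4, then 27.8, 26.9 and 28.4. IRF7, the factor that amplifies the type I response, stood at 0.621, 0.851 and 0.893 CPM, then 1.27, 1.14 and 0.870, then 1.14, 0.948 and 0.646. Neither IRF2 nor IRF7 passed the test on either day.

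Of 10 other signalling components listed, 9 were tested, and 3 were higher and 2 lower on each of days 3 and 6. That is 55.6% called on either day, against 40.6% and 54.6% of all genes, so the day 6 share was close to that of all genes. IRF5, a factor that acts downstream of nucleic acid sensing, went from 1.60 to 1.96 CPM on day 0 to 3.78 to 4.59 on day 3 and 4.18 to 5.15 on day 6 (log2 1.43, SE 0.16, adjusted p 1.72e-05 on day 6). IRF8, known from immune cells, fell from 32.6 to 35.7 CPM to 23.7 to 24.4 and 19.6 to 21.9 (log2 -0.74, SE 0.08, adjusted p 8.54e-06). EP300, a histone acetyltransferase that serves as a coactivator, stood at 672, 468 and 680.5 CPM on day 0, 519 to 544 on day 3 and 445 to 494 on day 6. It was lower on day 6 (log2 -0.37, SE 0.12, adjusted p 0.0226), with day 0 replicate 2 inside the day 6 range.

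The IFITM genes, which encode small membrane proteins that block virus entry, lie together on chromosome 11. IFITM1 (chr11:313506-315272) stood at 1.44, 2.42 and 1.27 CPM on day 0, 6.49, 6.69 and 6.31 on day 3 and 8.44, 9.09 and 10.6 on day 6. Means were 1.71 ± 0.624, 6.50 ± 0.193 and 9.39 ± 1.13 CPM (SD, n = 3), with no overlap between days. The log2 fold change was 1.93 (SE 0.20, adjusted p 2.73e-05) on day 3 and 2.46 (SE 0.20, adjusted p 1.12e-06) on day 6, a 5.49-fold rise. IFITM2 stood at 9.64, 13.2 and 8.09 CPM, then 17.2, 14.3 and 16.7, then 14.2, 12.3 and 15.3. It was higher on day 3 (log2 0.64, SE 0.16, adjusted p 0.0076) and, with day 0 replicate 2 inside the day 6 range, on day 6 (log2 0.44, SE 0.16, adjusted p 0.0357), the latter lost in 8 of 18 alternatives. IFITM3 stood at 6.53, 12.5 and 7.81 CPM, then 11.4, 12.4 and 13.7, then 12, 9.35 and 13.5, and missed the threshold with adjusted p of 0.082 and 0.142. Without day 0 replicate 2, the highest of its day, IFITM3 passed on day 3 (log2 0.81, adjusted p 0.000594) and on day 6 (log2 0.70, adjusted p 0.0010). The IFITM genes are similar in sequence and IFITM2 overlaps IFITM1 in the annotation, so how reads were shared among them is uncertain.

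**Figure D2:**
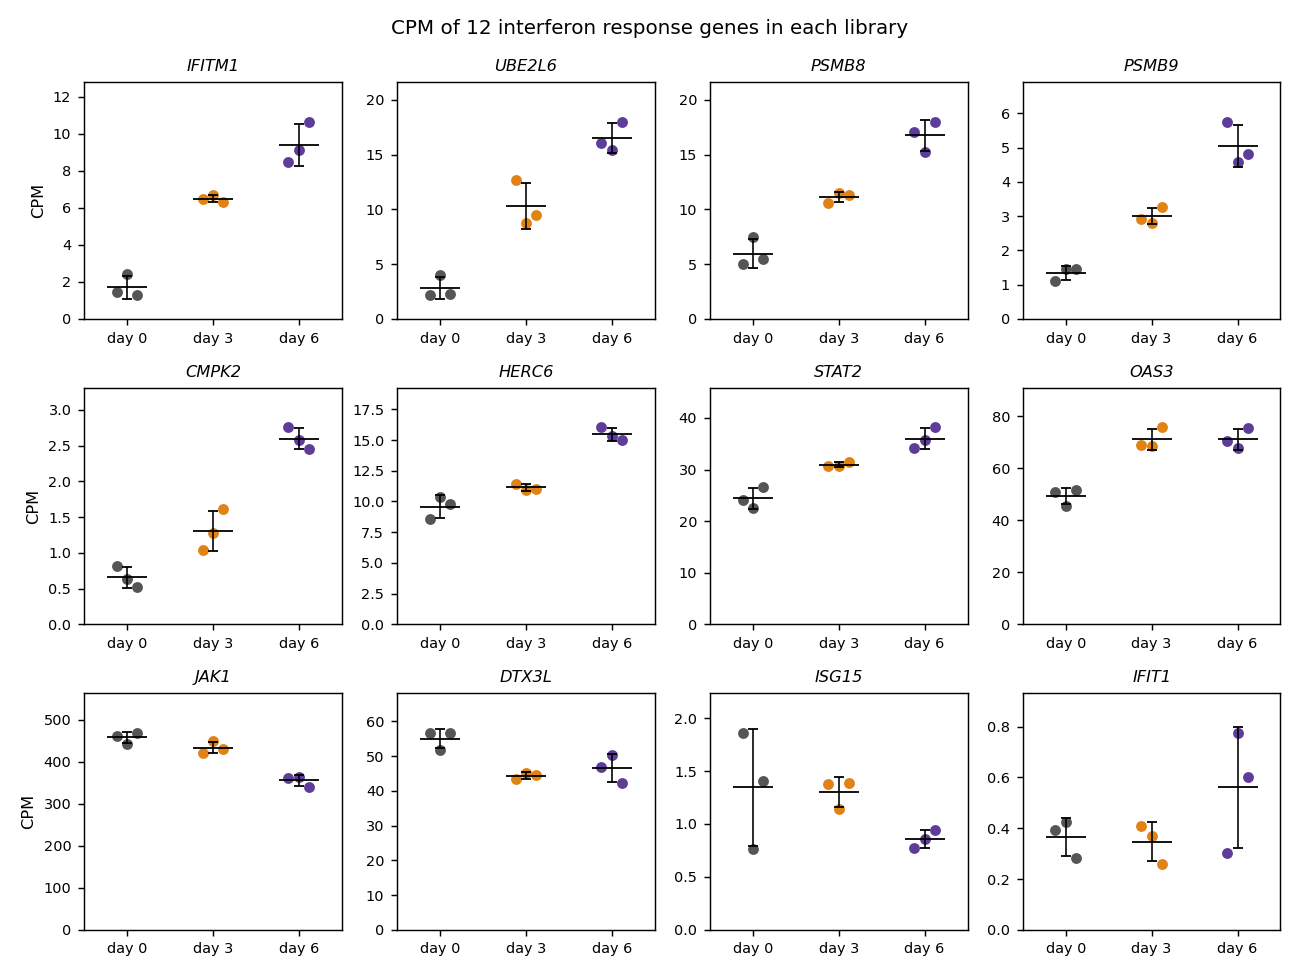
CPM of 12 members (vertical axes, each from 0) in each library on days 0, 3 and 6; points are libraries, the horizontal line is the mean and the bar 1 SD of 3 libraries. IFITM1, UBE2L6, PSMB8, PSMB9 and CMPK2 step up on each day without overlap, JAK1 is lowest on day 6, and ISG15 and IFIT1 overlap between day 0 and day 6.

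The conjugating enzyme UBE2L6 and the ligase HERC5 listed for ISG15 rose by day 6, as did HERC6, and ISG15 itself did not pass the test. ISG15 itself, the ubiquitin-like protein, stood at 1.86, 0.766 and 1.41 CPM on day 0, 1.38, 1.14 and 1.39 on day 3 and 0.774, 0.862 and 0.948 on day 6. It did not pass the test, with a log2 fold change of -0.66 (SE 0.31, adjusted p 0.0904) on day 6. Without day 0 replicate 2, the low value of its day, it was lower on day 6 (log2 -0.95, adjusted p 0.00756). UBE2L6, its conjugating enzyme, stood at 2.22, 4.0 and 2.26 CPM on day 0, 12.7, 8.80 and 9.48 on day 3 and 16.1, 15.4 and 18.0 on day 6. Means were 2.83 ± 1.02, 10.3 ± 2.09 and 16.5 ± 1.36 CPM (SD, n = 3). It was 3.67-fold higher on day 3 (log2 1.88, SE 0.21, adjusted p 5.15e-05) and 5.86-fold higher on day 6 (log2 2.55, SE 0.21, adjusted p 1.38e-06), the highest fold among the 42 tested members. HERC5, the main ligase for ISG15 in human cells, stood at 0.359, 0.425 and 0.188 CPM, then 0.857, 0.535 and 0.565, then 1.24, 1.08 and 1.46, and was 3.79-fold higher on day 6 (log2 1.92, SE 0.34, adjusted p 0.000522). Its day 3 call (adjusted p 0.0494) was lost in 15 of 17 alternatives. HERC6, its neighbour on chromosome 4, stood at 8.56, 10.3 and 9.83 CPM, then 11.4, 10.9 and 11, then 16.0, 15.3 and 15.0. It was higher on day 6 (log2 0.70, SE 0.09, adjusted p 7.36e-05) and missed the threshold on day 3 (adjusted p 0.0832), where it passed without day 0 replicate 2 (adjusted p 0.0247). UBA7, which activates ISG15 and is not among the 49, stood at 0.817, 0.723 and 0.658 CPM, then 2.95, 1.47 and 1.83, then 0.975, 1.68 and 1.72. It was higher on day 3 (log2 1.49, SE 0.32, adjusted p 0.00375) and on day 6 (log2 0.96, SE 0.34, adjusted p 0.0286), and was named after its values were seen. USP18, which removes ISG15 and restrains the type I receptor, stood at 38.7 to 41.1 CPM on day 0, 38.8 to 41.0 on day 3 and 38.3 to 42.6 on day 6, a log2 fold change of 0.04 (SE 0.07) on day 6. It has a near-identical copy, USP41, so its reads may be shared.

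Both immunoproteasome subunits listed rose on each day. These replace subunits of the standard proteasome and favour peptides suited to antigen presentation, and their genes overlap head to head on chromosome 6 (PSMB8 at chr6:32840717-32844703, PSMB9 at chr6:32844136-32859585), so without stated strand some reads cannot be assigned. PSMB8 stood at 5.0, 7.44 and 5.45 CPM on day 0, 10.6, 11.5 and 11.3 on day 3 and 17.1, 15.3 and 18.0 on day 6. PSMB9 stood at 1.11, 1.45 and 1.46 CPM, then 2.91, 2.81 and 3.26, then 5.75, 4.57 and 4.82. The days did not overlap for either gene. From day 0 to day 6 PSMB8 rose 2.82-fold (log2 1.5, SE 0.14, adjusted p 3.42e-06) and PSMB9 3.81-fold (log2 1.93, SE 0.18, adjusted p 3.2e-06). From day 3 to day 6 the log2 fold changes were 0.59 (SE 0.13, adjusted p 0.00838) and 0.76 (SE 0.16, adjusted p 0.00638). TAP1, the peptide transporter of the same locus and one of the further listed genes, rose from 11.5 to 11.7 CPM on day 0 to 17.7 to 18.2 on day 3 and 23.2 to 26.9 on day 6 (log2 1.08, SE 0.08, adjusted p 8.59e-07). PSMB10, another immunoproteasome subunit from the further listed genes, did not pass the test on either day. PSMB10 stood at 6.11 to 7.49 CPM on day 0, 5.70 to 6.32 on day 3 and 4.09 to 6.33 on day 6. Its log2 fold change was -0.16 (SE 0.16, adjusted p 0.457) on day 3 and -0.30 (SE 0.16, adjusted p 0.128) on day 6.

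All 4 tested MX and OAS genes were higher on day 6. OAS1 and OAS3 make the 2'-5' oligoadenylates that activate RNase L. OAS1 stood at 1.76, 2.17 and 2.45 CPM, then 4.06, 3.61 and 4.09, then 3.87, 4.09 and 4.65 (log2 0.89, SE 0.17, adjusted p 0.00143 on day 3 and 0.99, SE 0.17, adjusted p 0.000341 on day 6). OAS3 stood at 50.8, 45.6 and 51.6 CPM, then 69.1, 68.5 and 75.8, then 70.4, 67.7 and 75.6 (log2 0.53, SE 0.08, adjusted p 0.00037 and 0.000155). Day 3 and day 6 overlapped for both, and day 0 lay below. MX1 and MX2 encode dynamin-like GTPases that trap viral components. MX1 stood at 1.27, 0.893 and 1.27 CPM, then 1.57, 1.77 and 1.26, then 2.35, 1.94 and 2.45 (log2 0.97, SE 0.23, adjusted p 0.0035 on day 6). MX2 stood at 2.03, 1.45 and 1.41 CPM, then 1.90, 1.94 and 1.35, then 2.59, 2.54 and 2.84 (log2 0.69, SE 0.22, adjusted p 0.0171 on day 6), lost without day 0 or day 6 replicate 3 (adjusted p up to 0.0560). Neither MX gene passed on day 3.

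The IFIT genes, whose proteins bind foreign RNA ends, were low on all days. IFIT5 stood at 0.915, 1.32 and 0.940 CPM on day 0, 1.12, 1.77 and 1.44 on day 3 and 2.39, 2.11 and 2.71 on day 6. It was 2.28-fold higher on day 6 (log2 1.19, SE 0.24, adjusted p 0.00145). IFIT1 stood at 0.392, 0.425 and 0.282 CPM, then 0.410, 0.368 and 0.261, then 0.303, 0.776 and 0.603, with pooled counts of 28, 28 and 41 over the 3 libraries of each day. The ratio of day 6 to day 0 was 1.45 (95% interval 0.875 to 2.43, exact for 2 Poisson counts). That interval covers counting error only and takes in a fall, no change and a rise. IFIT2 stood at 0.423 to 0.490, 0.410 to 0.535 and 0.345 to 0.905 CPM, with pooled counts of 35, 39 and 53 and did not pass the test. It passed on day 6 without day 6 replicate 3, the low value of its day.

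Among the other restriction factors, CMPK2 rose and SAMD9L dipped. CMPK2, a mitochondrial nucleotide kinase, stood at 0.817, 0.638 and 0.517 CPM on day 0, 1.04, 1.27 and 1.61 on day 3 and 2.76, 2.59 and 2.45 on day 6. The days did not overlap, and it was 3.87-fold higher on day 6 (log2 1.95, SE 0.25, adjusted p 3.96e-05) and higher on day 3 (log2 0.96, SE 0.26, adjusted p 0.0117). The day 3 call was lost without day 3 replicate 3 (adjusted p 0.0550). Its head-to-head neighbour RSAD2, which encodes viperin, had 3, 9 and 14 pooled counts and was not tested. RSAD2 and CMPK2 overlap on opposite strands in the annotation, so without stated strand some reads may be shared. The ratio of day 6 to day 0 for RSAD2 was 4.62 (95% interval 1.29 to 25.1). SAMD9L, a growth-restraining antiviral gene, stood at 1.31, 1.70 and 1.36 CPM, then 1.04, 0.937 and 0.696, then 1.55, 1.21 and 1.12. It was lower on day 3 (log2 -0.69, SE 0.25, adjusted p 0.0447), a call lost in 14 of 17 alternatives, and not on day 6 (log2 -0.16, SE 0.24). BST2, or tetherin, which holds budding virus at the cell surface, was high throughout at 149 to 174, 150.1 to 169 and 151 to 173 CPM, with a log2 fold change of 0.02 (SE 0.08) on day 6. ISG20, TRIM22 and SAMD9 ran from 3.23 to 4.70, 1.32 to 2.83 and 0.517 to 0.746 CPM over all libraries and passed no test.

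IFI6 was the 1 tested member of the IFI genes that rose. It encodes a membrane protein with antiviral and cell-survival roles and stood at 0.163, 0.510 and 0.141 CPM on day 0, 0.634, 0.803 and 0.478 on day 3 and 0.942, 0.690 and 0.603 on day 6. Day 0 replicate 2 lay inside the day 3 range and below all day 6 libraries. The rise on day 6 (log2 1.47, SE 0.46, adjusted p 0.0166) was lost in 4 of 17 alternatives and that on day 3 (log2 1.26, SE 0.46, adjusted p 0.0482) in 13 of 17. IFI27 stood at 0.653, 0.213 and 0.705 CPM, then 0.224, 0.435 and 0.217, then 0.774, 0.345 and 0.517. It did not pass, and without day 0 replicate 2 it was lower on day 3 (adjusted p 0.0495). IFI35 went from 0.915 to 1.32 CPM on day 0 to 1.41 to 1.64 on day 6 with no overlap but missed the threshold (log2 0.53, SE 0.23, adjusted p 0.066). XAF1, a gene linked to apoptosis, stood at 5.19, 3.4 and 4.89 CPM, then 3.91, 4.15 and 3.44, then 3.09, 3.97 and 3.92. It passed no test, and without day 0 replicate 2, the low value of its day, it was lower on day 3 (adjusted p 0.0492) and on day 6 (log2 -0.48, adjusted p 0.0161).

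The PARP9 and DTX3L pair fell while PARP14, 105414 bases from DTX3L, rose. DTX3L, a ubiquitin ligase, and PARP9, its partner, share a start region on chromosome 3 (DTX3L at chr3:122564238-122575203, PARP9 at chr3:122527924-122564577). Their annotated genes overlap there on opposite strands, so without stated strand some reads may be shared. DTX3L stood at 56.7, 51.8 and 56.6 CPM, then 43.4, 45.2 and 44.5, then 46.8, 50.4 and 42.4 (log2 -0.31, SE 0.08, adjusted p 0.00885 on day 3 and -0.24, SE 0.08, adjusted p 0.0218 on day 6). PARP9 stood at 29.6, 27.5 and 28.1 CPM, then 24.1, 21.1 and 21.1, then 22.3, 23.6 and 21.8 (log2 -0.36, SE 0.08, adjusted p 0.00464 and -0.33, SE 0.08, adjusted p 0.00471). Every later library of both genes lay below every day 0 library. DTX3L missed the threshold on both days, and PARP9 on day 6, when libraries were scaled by size only (adjusted p 0.0695, 0.278 and 0.0713), and the day 6 call of DTX3L was lost in 7 of 18 alternatives in all. PARP14 (chr3:122680618-122730840), a mono-ADP-ribosyltransferase, stood at 54.3, 49.6 and 57.0 CPM, then 63.3, 61.6 and 58.8, then 67.2, 71.3 and 63.5, and was higher on day 6 (log2 0.33, SE 0.08, adjusted p 0.00361).

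**Figure D3:**
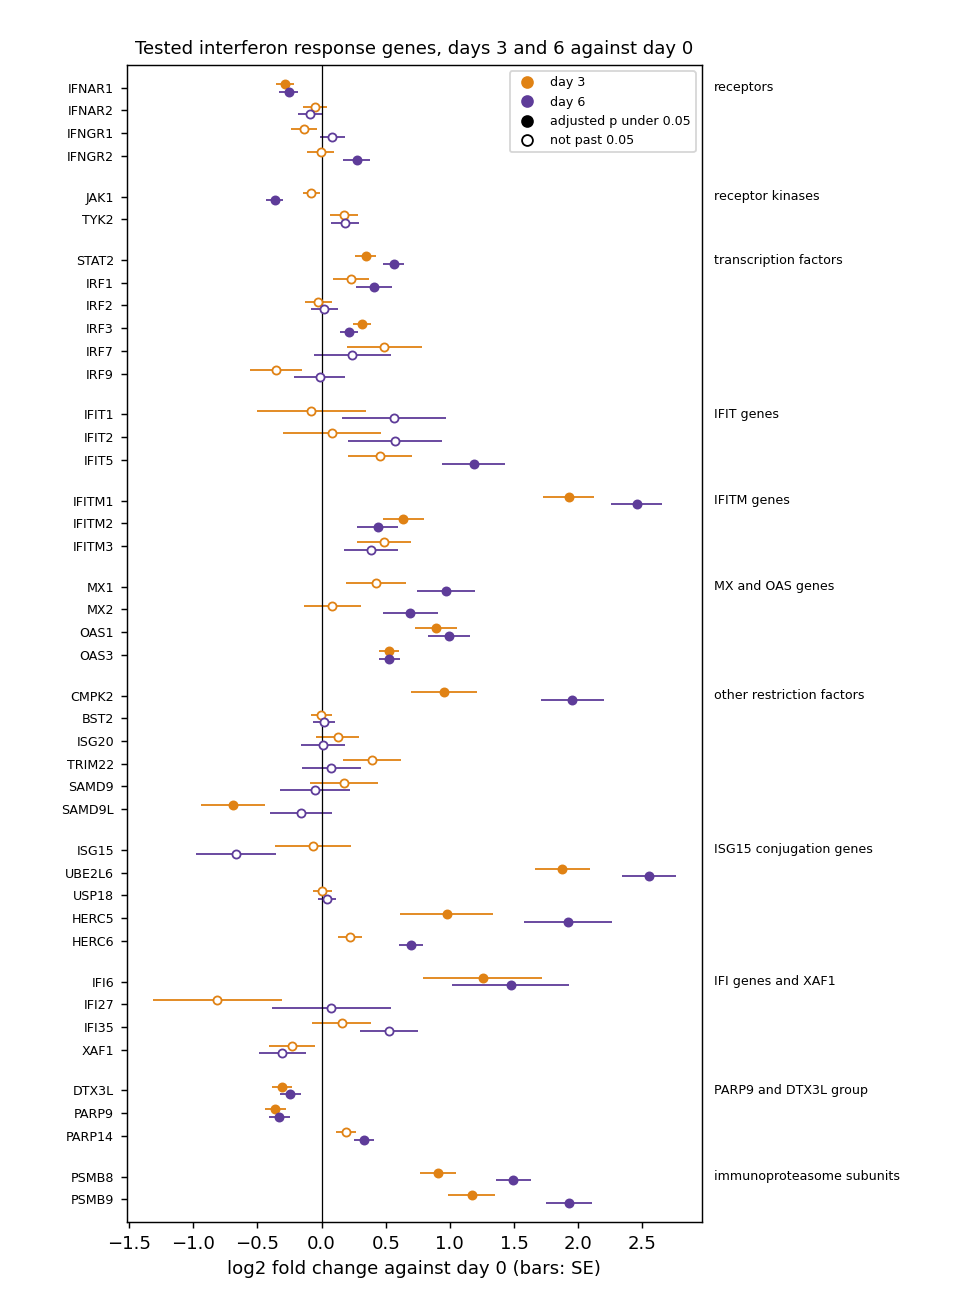
Log2 fold change against day 0 (horizontal axis, bars are SE) of the 42 tested members by role, day 3 in orange and day 6 in purple; filled points have an adjusted p under 0.05. UBE2L6 and IFITM1 lie farthest to the right, at 2.55 and 2.46 on day 6, and the filled points left of 0 are IFNAR1, JAK1, SAMD9L, DTX3L and PARP9.

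Calls on day 6 differed among neighbouring members. Members within 200 kb of each other formed 11 groups. In the chromosome 21 receptor group IFNAR1 was lower and IFNGR2 higher, in the chromosome 3 group PARP9 and DTX3L were lower and PARP14 higher, and in the chromosome 11 group the log2 fold change was 2.46 for IFITM1 and 0.44 for IFITM2. MX2 and MX1 rose side by side, as did HERC6 and HERC5. The differences between neighbours were not tested.

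**Figure D4:**
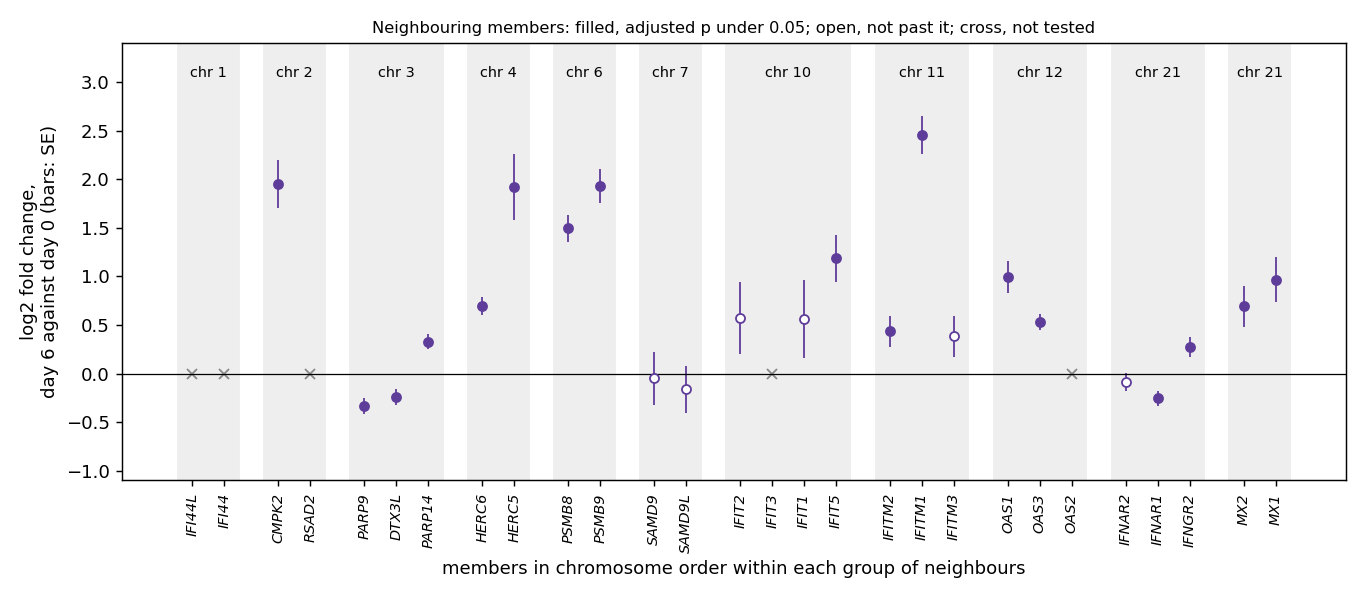
Log2 fold change from day 0 to day 6 (vertical axis, bars are SE) of members that lie near each other, in chromosome order within each shaded group; filled points have an adjusted p under 0.05, open points do not, and crosses at 0 mark members not tested, for which no change is shown. Both PSMB genes lie above 1.4, while the chromosome 3 and chromosome 21 receptor groups hold points on both sides of 0.

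From day 3 to day 6, the members that were higher were CMPK2, UBE2L6, PSMB8, PSMB9 and HERC6. The log2 fold change was 1.00 (SE 0.23, adjusted p 0.00942) for CMPK2, 0.67 (SE 0.18, adjusted p 0.0265) for UBE2L6 and 0.47 (SE 0.09, adjusted p 0.00409) for HERC6. CMPK2 was lost without day 3 replicate 1 (adjusted p 0.0519), and UBE2L6 without day 3 replicate 2 or 3 or any of the day 6 libraries (adjusted p up to 0.13). Day 0 replicate 2 belongs to neither day, but it shares the scaling and the estimate of spread, and without it 6 more members passed: HERC5, IFIT5, IFITM1, IFNGR2, MX2 and STAT2. Libraries of days 3 and 6 did not overlap for 20 of the 42 tested members, against 43.5% of all genes tested. Days 0 and 3 did not overlap for 19 (53.8% of all genes), and days 0 and 6 for 22 (58.7%).

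The 7 members that were not tested had few counts in every library. GBP2, a guanylate-binding GTPase, had pooled counts of 0, 1 and 12 on days 0, 3 and 6, with 0.168, 0.215 and 0.0861 CPM on day 6. Taking the 12 counts as they stand, that is at least 3.96-fold higher than a floor of 3 counts over the day 0 libraries, and the exact 95% lower limit of the ratio, which allows for counting error on both days, is 2.75. IFI44 had 0, 1 and 6, with every day 6 library under its own limit of 3 counts, so no fold is given. IFIT3 had 9, 13 and 6, OAS2 24, 33 and 16, OASL 9, 4 and 10, and IFI44L 18, 32 and 20. Of the 49 members, 12 were at or under 1 CPM in every library. Among the 7 not tested, the 95% intervals of the day 6 to day 0 ratio of IFIT3 (0.193 to 2.08), OAS2 (0.328 to 1.29), OASL (0.402 to 3.06) and IFI44L (0.552 to 2.21) all include 1. The lower limits for RSAD2 (1.29), GBP2 (2.75) and IFI44 (1.17, from 6 counts on day 6) lie above 1.

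Of 14 negative regulators listed, all tested, 4 were higher and 3 lower on day 3 and 6 higher and 5 lower on day 6, with a median log2 fold change of 0.26 on day 6. With UBA7, which was first in this list, 5 were higher on day 3 and 7 on day 6. Without it 50% and 78.6% were called, against 40.6% and 54.6% of all genes, with 28.6% and 42.9% higher, against 22.5% and 28.9%. SOCS3, an inhibitor of JAK kinases induced by cytokines, stood at 0.719, 0.553 and 0.611 CPM on day 0, 1.53, 2.01 and 1.74 on day 3 and 3.30, 2.37 and 4.01 on day 6, a 5.07-fold rise (log2 2.34, SE 0.26, adjusted p 1.4e-05). SOCS2 of the same family went from 4.97 to 7.83 CPM to 12.3 to 12.8 and 13.7 to 14.7 (log2 1.13, SE 0.14, adjusted p 3.66e-05). PIAS3, an inhibitor of STAT activity, went from 40.2 to 44.3 CPM to 53.5 to 57.1 and 59.8 to 66.9 (log2 0.59, SE 0.07, adjusted p 3.96e-05). IRF2BP2, a corepressor that binds IRF2, stood at 77.4 to 101, 88.1 to 99 and 124 to 139 CPM and was higher on day 6 (log2 0.62, SE 0.10, adjusted p 0.00031). PTPN2, a phosphatase that acts on JAK1, fell from 36.3 to 47.7 CPM to 26.2 to 29.2 and 22.9 to 26.8 (log2 -0.70, SE 0.11, adjusted p 0.000229).

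Of 57 further interferon-stimulated genes listed, 55 were in the table under the symbols used and 45 were tested. On day 3, 14 were higher and 8 lower, and on day 6, 15 were higher and 13 lower, with medians of 0.15 and 0.12. These are 48.9% and 62.2% called, against 40.6% and 54.6% of all genes, with 31.1% and 33.3% higher, against 22.5% and 28.9%. LY6E, a membrane-anchored antiviral protein, went from 34.0 to 41.4 CPM on day 0 to 72.2 to 73.9 on day 3 and 86.1 to 112 on day 6 (log2 1.43, SE 0.11, adjusted p 5.91e-07). CASP4, an inflammatory caspase, went from 0.517 to 1.19 CPM to 1.37 to 1.86 and 4.57 to 4.84, a 5.59-fold rise by day 6 (log2 2.48, SE 0.25, adjusted p 5.99e-06). PNPT1, a mitochondrial RNA exonuclease, fell from 253 to 301 CPM to 164 to 171 and 133 to 151 (log2 -0.92, SE 0.08, adjusted p 3.44e-06). LAP3, an aminopeptidase, fell from 100.1 to 110.1 CPM to 60.9 to 64.8 and 59.0 to 64.5 (log2 -0.75, SE 0.07, adjusted p 4.54e-06).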

How the data were processed

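Poly-A RNA of 9 libraries was sequenced. Per the submitters' processing notes, bcl2fastq 2.19, kallisto 0.44.0 and DESeq2 (no version) were used, with builds GRCh38, GRCm38 and hg38 named without roles. The authors deposited estimated counts per gene symbol; how transcripts were summed and whether strand was used is not given in the sources used here.

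Estimated counts were rounded and tested with edgeR 4.0.16 (R 4.3.3; quasi-likelihood F-test, TMM, filterByExpr with minimum count 10, 15345 genes), with 1 mean per day and Benjamini-Hochberg adjustment at 0.05. The script was tested on simulated data. limma 3.58.1 and DESeq2 1.42.0 served as alternatives. Coordinates are GENCODE 29 on GRCh38, 1-based; promoters are RefSeq, GRCh38.p14, where present.

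Members and lists were chosen with earlier results of these data known. UBA7, which activates ISG15 and was first listed as a negative regulator, was taken out of that list after its values were seen. Library values are given for each member called against day 0 and each receptor, kinase and transcription factor, and, from each pathway list, for up to 5 called genes with the lowest day 6 p. Some genes that the rule takes are not reported here. No replicates were duplicates: counts within a day differed by 3.5 to 55.6 times sampling noise (chi-square per gene).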

Additional observations from a re-analysis of the deposited data

How the results depend on the processing

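Over 18 alternative analyses, no called member changed direction in 793 comparisons with an alternative, and 111 missed the threshold, 1 or more for 18 of the 45 calls. Of 1414 for members not called, the sign turned in 79 and 41 passed. In the tests of D3 and D6 against D0 and D6 against D3, the counts that moved by over 1.5 times were as follows. With library size only, members lower were 1 on day 3 and 1 on day 6, members higher from day 3 to day 6 were 9, and all genes lower on day 3 were 1825. That scaling moved the median of all genes by 0.08, 0.11 and 0.04 (log2), and the share of calls that were higher was 69.2% and 66.6% on days 3 and 6, against 55.3% and 53.0%. At a mean of at least 5 CPM, members higher on day 6 were 10 and lower 2, and genes changed from day 3 to day 6 were 826 higher and 422 lower; fewer members are tested there. At an adjusted p under 0.01, members lower were 2 on day 6 and 0 from day 3 to day 6, all genes lower on day 3 were 1471, and genes from day 3 to day 6 were 1159 higher and 285 lower. From day 3 to day 6, members higher were 8 with limma-voom and 11 with only these days in the fit, which gave 1824 genes lower. The cause of the other moves was not tested. Leaving out each library, members higher were 9 to 14 (day 3), 14 to 20 (day 6) and 4 to 11 (day 3 to day 6, 11 without day 0 replicate 2), and members lower 3 to 5, 3 to 6 and 0 to 1 (0 without day 3 replicate 2 or 3). All genes higher were 2807 to 3919, 3901 to 4958 and 1258 to 2591, and lower 1846 (without day 3 replicate 1) to 3370, 3367 to 4538 and 348 (without day 3 replicate 2) to 2090 (without day 0 replicate 2). Same-numbered libraries of different days had deviations correlated at -0.153 to 0.209, over 0.1 in 4 of 9 pairs, so the numbers were not taken to pair the libraries; with the replicate block, members higher were 11, 16 and 5 and lower 3, 4 and 1. Depth limits the 12 members at or under 1 CPM.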
